A study of Rattus norvegicus with 30 samples.

Results

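The GABA neuron genes described here are Gad1, Gad2, Slc32a1 and Pvalb, 4 of the 32545 gene identifiers counted in gray matter of the upper cervical spinal cord. They were listed by identifier, with no threshold on their values: ENSRNOG00000000007 for Gad1, ENSRNOG00000018200 for Gad2, ENSRNOG00000015393 for Slc32a1 and ENSRNOG00000006471 for Pvalb. The rats were adult female Long Evans animals that had a thoracic spinal cord injury (SCI) or sham surgery, and the cervical tissue (the intermediate laminae IV to VII on both sides, at vertebral level C3) lay above the lesion. There were 6 groups of 5 rats: sham rats at 1 and 12 weeks, and injured rats at 1, 3, 6 and 12 weeks. All rats were of 1 strain and sex, and the 5 of each group had been picked by the yield and quality of their RNA.

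GABA is the main inhibitory transmitter of the brain and, with glycine, of the spinal cord. Gad1 and Gad2 encode the pair of glutamate decarboxylases that make GABA from glutamate. The Gad1 enzyme is spread through the cell and supplies most basal GABA, whereas the Gad2 enzyme is concentrated at axon terminals and tied to synaptic release. Slc32a1 encodes the vesicular transporter that loads both GABA and glycine into synaptic vesicles, so it is expressed in glycine neurons as well. Pvalb encodes parvalbumin, a cytosolic calcium buffer of fast-firing neurons, which in the spinal cord include inhibitory and some excitatory interneurons.

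The data showed no difference between injured and sham rats in any of the 4 genes that passed the test, at any week, and the 95% intervals of the fold between groups ran from 0.791 to 1.49. The upper bound, that of Gad2 at 1 week, passed 1.5 in 7 of 37 alternative fits. Values differed more between single rats than between group means. Means over several rats are expected to vary less than single rats even with no group effect, so this says little about injury. Gad1 and Gad2 varied together from rat to rat (Pearson r = 0.83 over 30 rats, permutation p = 1e-05). The other pairs of the 4 genes had an r from 0.12 (Gad2 and Pvalb) to 0.40 (Gad1 and Slc32a1), and none passed after adjustment. The difference between r values was not tested.

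Levels are given as CPM, the counts of a gene per M counts of its library after TMM scaling, a correction for differences in composition between libraries. Library totals ran from 6.46 to 37.4 M counts. All 4 genes passed the filter on low counts, which kept 14801 genes, and they stood above 89.1% to 92.3% of those genes in mean level per library. Gad1 had 906 to 5659 counts per library, Gad2 944 to 5577, Slc32a1 819 to 6068 and Pvalb 689 to 4490. Counting error was therefore between 1.28% and 3.81% of a value, small beside the spread between rats. CPM does not correct for gene length, so levels are compared between rats and not between genes. In bulk tissue, fewer cells of a type and less RNA per cell cannot be told apart. Markers of other cell types could not be looked up by identifier with the tables used here, so the neuron content of each sample was not measured and its part in the results was not tested. In 1 library the labels disagree. The title of sham 1 week replicate 1 marks it as a control, while its surgery field and its source name both name an injury. It was kept as sham, and values without it are given where a result leans on it.

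The start regions of the genes are shown because the results turn on a pair of genes that vary together and on 2 that do so less. The sequences are the 250 bases before the start site in the RefSeq promoter table for assembly GRCr8, which is a later build than the Rnor_6.0 named for the counts. Gad1 is at chr3:75777202-75777451 (plus strand), Gad2 at chr17:89671468-89671717 (plus), Slc32a1 at chr3:167686995-167687244 (plus) and Pvalb at chr7:111666290-111666539 (minus). They are written 5′ to 3′ on the strand of the gene, and capitals mark matches on either strand to the TATA box (TATAA), the CCAAT box, the E-box (CANNTG), the GC box (GGGCGG) and the core of a cyclic AMP response element (TGACG).
Gad1: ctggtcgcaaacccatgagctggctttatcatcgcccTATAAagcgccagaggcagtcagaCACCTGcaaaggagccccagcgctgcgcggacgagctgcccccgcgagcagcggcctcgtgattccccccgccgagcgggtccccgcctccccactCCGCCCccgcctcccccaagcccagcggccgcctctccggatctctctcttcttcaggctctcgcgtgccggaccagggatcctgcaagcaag
Gad2: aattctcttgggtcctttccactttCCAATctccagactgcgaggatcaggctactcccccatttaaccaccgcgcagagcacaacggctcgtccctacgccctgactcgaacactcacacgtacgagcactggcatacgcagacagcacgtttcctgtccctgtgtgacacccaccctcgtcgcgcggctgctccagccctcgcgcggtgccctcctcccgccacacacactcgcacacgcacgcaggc
Slc32a1: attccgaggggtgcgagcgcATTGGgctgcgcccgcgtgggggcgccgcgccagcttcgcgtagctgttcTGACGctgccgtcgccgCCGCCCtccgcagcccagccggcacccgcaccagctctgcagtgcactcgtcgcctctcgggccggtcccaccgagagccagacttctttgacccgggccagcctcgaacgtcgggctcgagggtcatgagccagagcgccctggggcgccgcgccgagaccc
Pvalb: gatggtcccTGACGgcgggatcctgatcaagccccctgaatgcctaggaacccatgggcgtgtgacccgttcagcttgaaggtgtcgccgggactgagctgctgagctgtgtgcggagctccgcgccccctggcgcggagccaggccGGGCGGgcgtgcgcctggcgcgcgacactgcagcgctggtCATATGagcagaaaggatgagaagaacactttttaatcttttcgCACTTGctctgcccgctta
The Gad1 and Gad2 windows had none of the 5 motifs in common. Gad1 held a match to the TATA box, the E-box and the GC box once each, and Gad2 held a CCAAT box once. The TATAA match of Gad1 began at position -213 from the start site. Slc32a1 held a CCAAT box, a GC box and a response element core once each, and Pvalb held an E-box at 2 places and a GC box and a response element core at 1 place each. No matches overlapped. Of 33469 promoter windows of the same length, 24% held the TATA box, 34% the CCAAT box, 65.5% the E-box, 30.5% the GC box and 18.2% the response element core. The windows of all 4 genes were rich in G and C, with 68.4% for Gad1, 62% for Gad2, 73.6% for Slc32a1 and 62.8% for Pvalb, against a median of 51.2% over all windows. They held 23, 22, 34 and 21 CG pairs in the same order, where the median window held 5. These matches describe the letters only.

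The enzymes that make GABA come first. Gad1 stood at 142, 150, 109, 171 and 118 CPM in the rats of sham 1 week and at 124, 160, 164, 153 and 162 CPM in those of SCI 1 week. Gad1 was at 176, 151, 158, 134 and 178 CPM in sham 12 weeks and at 155, 116, 165, 155 and 191 CPM in SCI 12 weeks. The ranges of injured and sham rats overlapped at both times, and the widest ranges were those of sham 1 week and SCI 12 weeks. Between these times Gad1 was at 148, 138, 149, 126 and 159 CPM in SCI 3 weeks and at 145, 130, 131, 156 and 143 CPM in SCI 6 weeks. The group means of Gad1 rose in order from 138 ± 25.2 CPM (SD, n = 5) in sham 1 week through 141 ± 11 at 6 weeks after injury, 144 ± 12.6 at 3 weeks, 152 ± 16.6 at 1 week and 156 ± 27.1 at 12 weeks to 160 ± 18.1 in sham 12 weeks. The lowest and the highest mean were thus both sham groups, 1.16-fold apart, and each step between neighbours in the order was smaller than the SD of either group.

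For Gad2, the enzyme of the axon terminal, the rats of sham 1 week had 141, 149, 92, 180 and 124 CPM and those of SCI 1 week 152, 181, 192, 149 and 163 CPM. The 92 CPM of sham 1 week replicate 3 was the lowest of the 30 rats and the 192 CPM of SCI 1 week replicate 3 the highest. Gad2 was at 163, 130, 162, 115 and 180 CPM in sham 12 weeks and at 142, 121, 163, 148 and 190 CPM in SCI 12 weeks. It was at 164, 146, 147, 138 and 167 CPM in SCI 3 weeks and at 150, 147, 131, 159 and 145 CPM in SCI 6 weeks. The means ran from 137 ± 32.3 CPM (SD, n = 5) in sham 1 week through 146 ± 10.4 in SCI 6 weeks, 150 ± 26.7 in sham 12 weeks, 152 ± 12.6 at 3 weeks after injury and 153 ± 25.5 at 12 weeks after injury to 168 ± 18.6 in SCI 1 week. As for Gad1, neighbours in this order differed by less than the SD of either group, while the lowest and the highest mean were 30.4 CPM, or 1.22-fold, apart. Steps between sorted means say little about a difference between groups, for Gad2 as for the other genes.

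For Slc32a1, the vesicular transporter, values ranged from 127 to 199 CPM over the 30 rats, with a mean of 168 ± 20.4 (SD, n = 30). The group means lay between 157 ± 20.2 CPM (SD, n = 5) in SCI 3 weeks and 174 ± 20.3 in sham 1 week. In between were SCI 1 week at 162 ± 24.7, SCI 12 weeks at 169 ± 21.6, SCI 6 weeks at 172 ± 24.3 and sham 12 weeks at 173 ± 14.8. Each step was smaller than the SD of either neighbour. At 6 weeks 1 injured rat stood low, with values of 130, 188, 176, 177 and 190 CPM, and at 12 weeks as well, with 182, 131, 177, 181 and 173 CPM. The lowest value of all, 127 CPM, was that of SCI 3 weeks replicate 4.

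Pvalb, the calcium buffer, was the steadiest of the genes from rat to rat, with a range of 103 to 152 CPM and a mean of 127 ± 14.05 (SD, n = 30). Its lowest group mean was 121 ± 18.5 CPM (SD, n = 5) in SCI 1 week and its highest 135 ± 7.31 in sham 12 weeks. Sham 1 week at 126 ± 14.3, SCI 3 weeks at 127 ± 12, SCI 12 weeks at 127 ± 18.6 and SCI 6 weeks at 130 ± 14.3 lay between them, each within the SD of its neighbours. On the log2 scale the SD over the 30 rats was 0.16 for Pvalb, 0.18 for Slc32a1, 0.19 for Gad1 and 0.23 for Gad2. The coefficient of variation between rats of a group in the edgeR model was 10.8% for Pvalb, 12.1% for Slc32a1, 12.4% for Gad1 and 14.8% for Gad2, where the median of all tested genes was 11.5%.

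**Figure D1:**
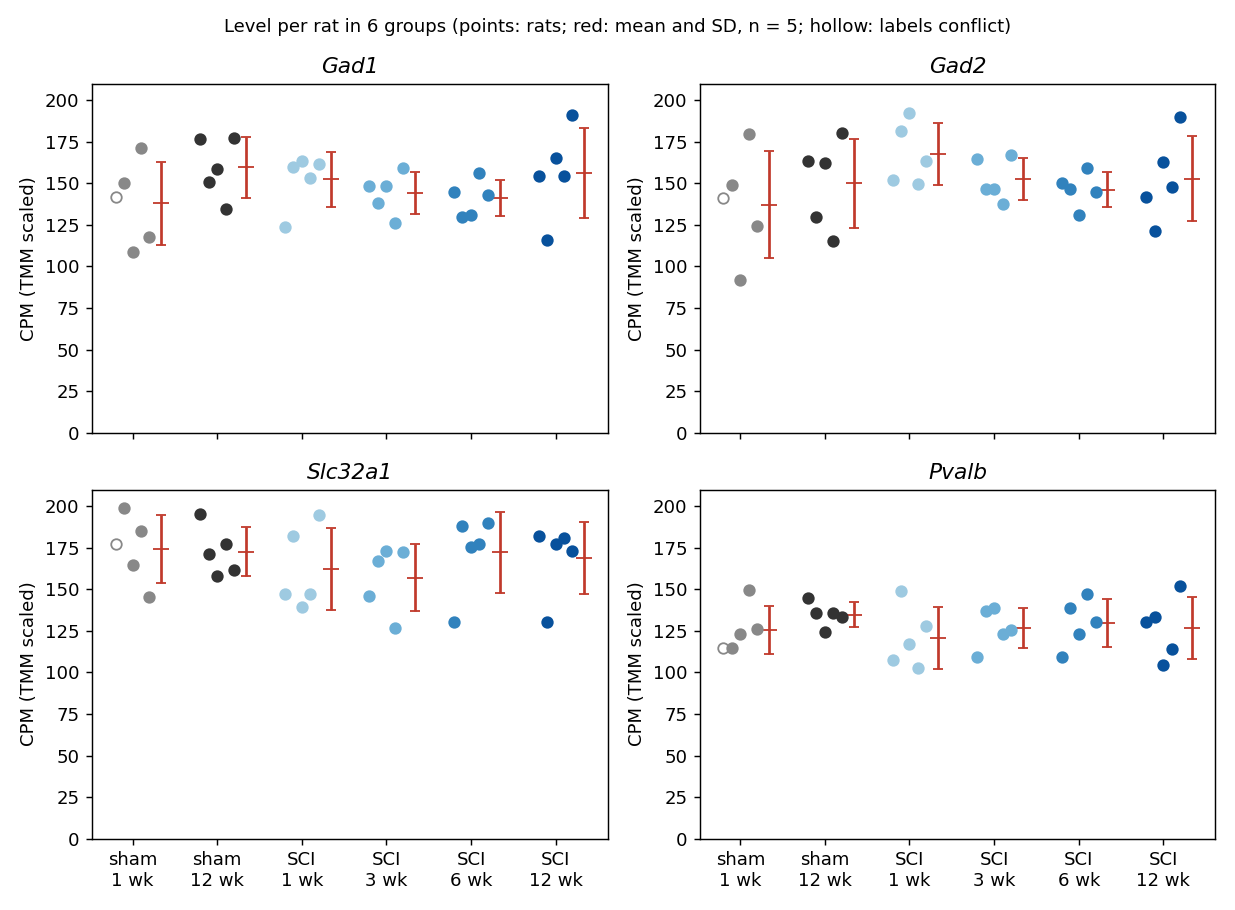
Level of each gene in CPM (y axis, from 0) in each of the 30 rats, by group (x axis). Points are rats in order of replicate number, red marks the mean and SD of 5 rats, and the hollow point is the library with conflicting labels. In each gene the groups overlap, as with Gad2 between 92 and 180 CPM in sham 1 week and between 149 and 192 CPM in SCI 1 week.

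The first comparison asked whether these genes differed 1 week after injury from sham rats of the same week. Of all tested genes 0.358% were called there (53 of 14801 at an adjusted p under 0.05 by the quasi-likelihood test of edgeR), and 0 of the 4 GABA neuron genes were among them. That count of 53 was not firm. It was 1 without the library with conflicting labels, 0 with that library counted as injured and 219 with DESeq2. For Gad2 the log2 fold change was 0.29 (standard error 0.136), with a 95% interval of the fold from 1.01 to 1.49 (edgeR, adjusted p = 0.33). Its size moved with single sham rats. It was 0.17 without sham 1 week replicate 3 (edgeR, adjusted p = 0.62) and 0.41 without sham 1 week replicate 4 (edgeR, adjusted p = 0.241), and over all alternatives its adjusted p ran from 0.208 to 0.62. Without the library with conflicting labels it was 0.30, with an interval of the fold from 0.997 to 1.52 (edgeR, adjusted p = 0.392), and with that library counted as injured 0.26 (edgeR, adjusted p = 0.506). The log2 fold change of Gad1 was 0.15 (edgeR, adjusted p = 0.593), or 0.07 and 0.23 without the same sham replicates 3 and 4, that of Slc32a1 -0.10 (edgeR, adjusted p = 0.722) and that of Pvalb -0.06 (edgeR, adjusted p = 0.84). The median absolute log2 fold change of all tested genes in this comparison was 0.11. Ranges of the 5 injured and 5 sham rats were apart for 3.51% of all tested genes and for 0 of these 4.

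At 3 and 6 weeks there was no sham group of that week, injured rats were set against the 10 sham rats of both times, and 0% of tested genes were called at either time. At 3 weeks the log2 fold changes were -0.04 for Gad1, 0.09 for Gad2, -0.14 for Slc32a1 and -0.04 for Pvalb (edgeR, adjusted p from 0.777 to 0.954). At 6 weeks they were -0.07, 0.03, -0.01 and -0.0033 in the same order (edgeR, adjusted p from 0.86 to 0.993). These 2 comparisons share all of their sham rats. At 12 weeks, against sham 12 weeks and with 0% of tested genes called, the values were -0.02 for Gad1, 0.03 for Gad2, -0.03 for Slc32a1 and -0.09 for Pvalb (edgeR, adjusted p from 0.942 to 0.992). Most of these values are smaller than their standard errors, which lay between 0.085 and 0.136, and their signs are not read.

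Between sham rats of 12 weeks and of 1 week Gad1 differed by 0.21 on the log2 scale (standard error 0.113), with a 95% interval of the fold from 0.988 to 1.36 (edgeR, adjusted p = 0.642). Gad2 had 0.13, Slc32a1 -0.01 and Pvalb 0.10 (edgeR, adjusted p from 0.832 to 0.989), and 0% of tested genes were called. The 0.13 of Gad2 was 0.016 without sham 1 week replicate 3 and 0.25 without sham 1 week replicate 4. With all 20 injured rats against all 10 sham rats, the comparison with the most rats, Gad1 had 0.0025, Gad2 0.11, Slc32a1 -0.07 and Pvalb -0.05 (edgeR, adjusted p from 0.603 to 0.99, 0% of tested genes called). Its intervals allowed a fold of 0.908 to 1.11 for Gad1, 0.958 to 1.22 for Gad2, 0.866 to 1.05 for Slc32a1 and 0.89 to 1.05 for Pvalb.

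The difference between the injury effects at 12 weeks and at 1 week was tested directly. It was -0.17 for Gad1, -0.26 for Gad2, 0.07 for Slc32a1 and -0.03 for Pvalb on the log2 scale (edgeR, adjusted p from 0.766 to 0.973, 0% of tested genes called). The 95% interval of this ratio of folds was 0.709 to 1.11 for Gad1, 0.634 to 1.10 for Gad2, 0.844 to 1.31 for Slc32a1 and 0.806 to 1.19 for Pvalb, wider than those between groups. The joint test for any difference among the 6 groups, in which 0.027% of tested genes were called, gave an adjusted p of 0.732 for Gad1, 0.779 for Gad2, 0.892 for Slc32a1 and 0.892 for Pvalb (edgeR). Where 0% was called, the unadjusted p was under 0.05 for 1052 genes at 3 weeks, 1216 at 6 weeks, 785 at 12 weeks, 1219 between the sham groups, 1931 for all injured against all sham and 1240 for the difference of effects. Among the 4 genes it was under 0.05 in 1 of 24 comparisons between groups, that of Gad2 at 1 week. In that comparison it was under 0.05 for 2061 of the 14801 tested genes. DESeq2 and limma-voom called none of the 4 genes in any comparison, with 1, 1, 0, 2, 16 and 18 genes called by DESeq2 in the same order and 0, 0, 0, 0, 0 and 2 by limma-voom.

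A p that misses the threshold does not show equal levels, so the intervals set the limit. Over the 24 comparisons between groups the 95% intervals of the fold ran from 0.791 (Slc32a1 at 3 weeks) to 1.49 (Gad2 at 1 week), and the highest bound after that was 1.36. Under the alternatives the upper bound for Gad2 at 1 week ran from 1.34 without sham 1 week replicate 3 to 1.60 without sham 1 week replicate 4, and it passed 1.5 in 7 of the 37 alternatives that give an interval. The lower bound ran from 0.951 to 1.10 and was under 1 in 10 of them, so that whether this interval takes in no change depends on the fit.

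**Figure D2:**
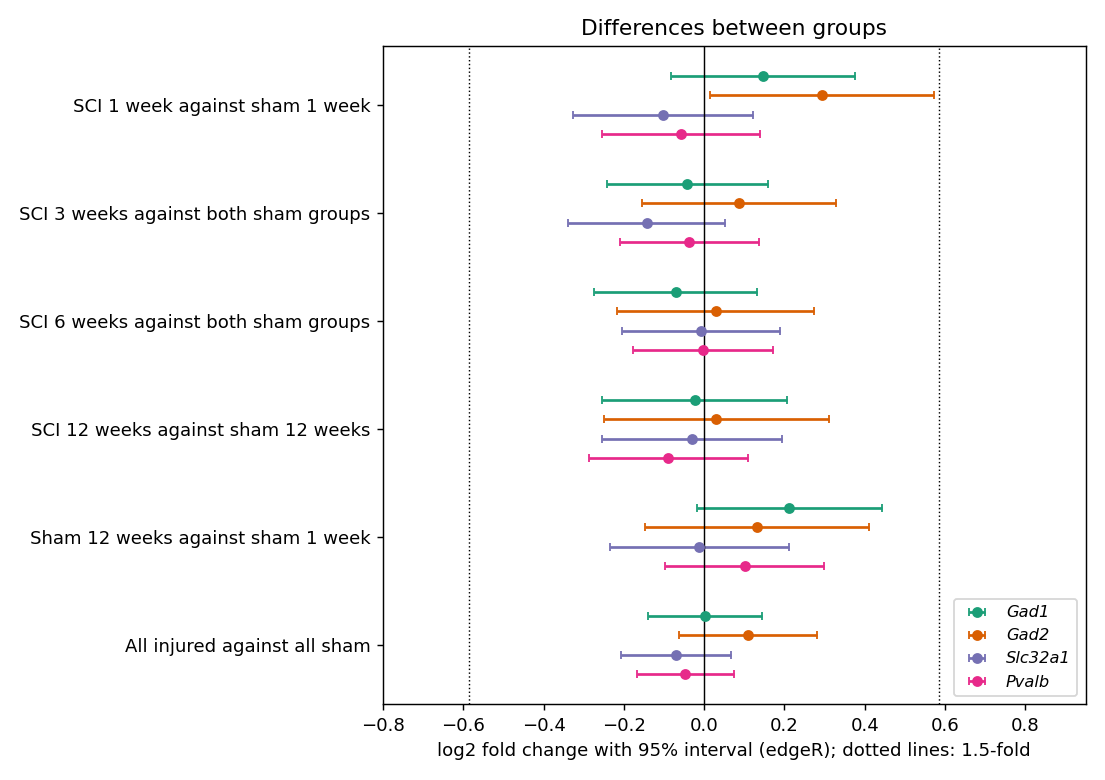
Log2 fold change (x axis) of the 4 genes in 6 comparisons (rows), with 95% intervals from the edgeR fit of 30 libraries. Dotted lines mark a 1.5-fold difference, which no interval of this fit reaches. The interval of Gad2 at 1 week, 1.01 to 1.49 as a fold, leaves out 0 here and takes it in under 10 of 37 alternatives.

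The second question was how the genes varied together between rats. Pairs were compared on log2 CPM over the 30 rats, with 6 pairs and p adjusted over them (permutation test with 100000 permutations, two-sided). Gad1 and Gad2 had a Pearson r of 0.83 (95% interval by the Fisher transformation 0.67 to 0.92) and a Spearman rho of 0.82, both with a permutation p of 1e-05, the smallest that these permutations can give, and an adjusted p of 6e-05. With each rat measured from the mean of its own group the r was 0.88 and the rho 0.87 (permutation within groups, p = 1e-05 for each). Without the 2 rats farthest from the median of Gad1 the r was 0.76 (permutation p = 1e-05), and over the 30 fits that left out 1 rat each it ran from 0.79 to 0.87. The rat with the lowest Gad1, sham 1 week replicate 3 at 109 CPM, also had the lowest Gad2, and the rat with the highest Gad1, SCI 12 weeks replicate 5 at 191 CPM, had the next to highest Gad2 at 190 CPM.

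None of the other 5 pairs passed after adjustment. Gad1 and Slc32a1 had an r of 0.40 (95% interval 0.04 to 0.66, permutation p = 0.0296, adjusted p = 0.0613) and a rho of 0.36 (permutation p = 0.0516, adjusted p = 0.103). Slc32a1 and Pvalb had an r of 0.39 (95% interval 0.04 to 0.66, permutation p = 0.0307, adjusted p = 0.0613) and a rho of 0.36 (permutation p = 0.0492, adjusted p = 0.103). Their r was 0.34 and 0.35 without the 2 rats farthest from the median (permutation p = 0.0777 and 0.0676), and 0.47 and 0.38 within groups (permutation p = 0.017 and 0.0777, adjusted p = 0.0509 and 0.155).

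Gad1 and Pvalb had an r of 0.23 and a rho of 0.28 (permutation p = 0.216 and 0.135, adjusted p = 0.324 and 0.203). Gad2 had an r of 0.13 and a rho of 0.13 with Slc32a1 (permutation p = 0.493 and 0.487, adjusted p = 0.527 and 0.566) and an r of 0.12 and a rho of 0.11 with Pvalb (permutation p = 0.527 and 0.566, adjusted p = 0.527 and 0.566). Without the 2 rats farthest from the median these r were 0.29, 0.20 and 0.18. Within groups the r of Gad1 with Pvalb was 0.23, that of Gad2 with Slc32a1 0.25 (rho 0.30) and that of Gad2 with Pvalb 0.21 (rho 0.15), with an adjusted permutation p of r of 0.299, 0.271 and 0.299. With 1 rat left out, r ran from 0.05 to 0.23 for Gad2 with Slc32a1 and from 0.03 to 0.17 for Gad2 with Pvalb. The 95% interval of r was -0.24 to 0.47 for Gad2 with Slc32a1 and -0.25 to 0.46 for Gad2 with Pvalb, and that of Gad1 with Gad2 lay above both. The difference between the r values was not tested.

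**Figure D3:**
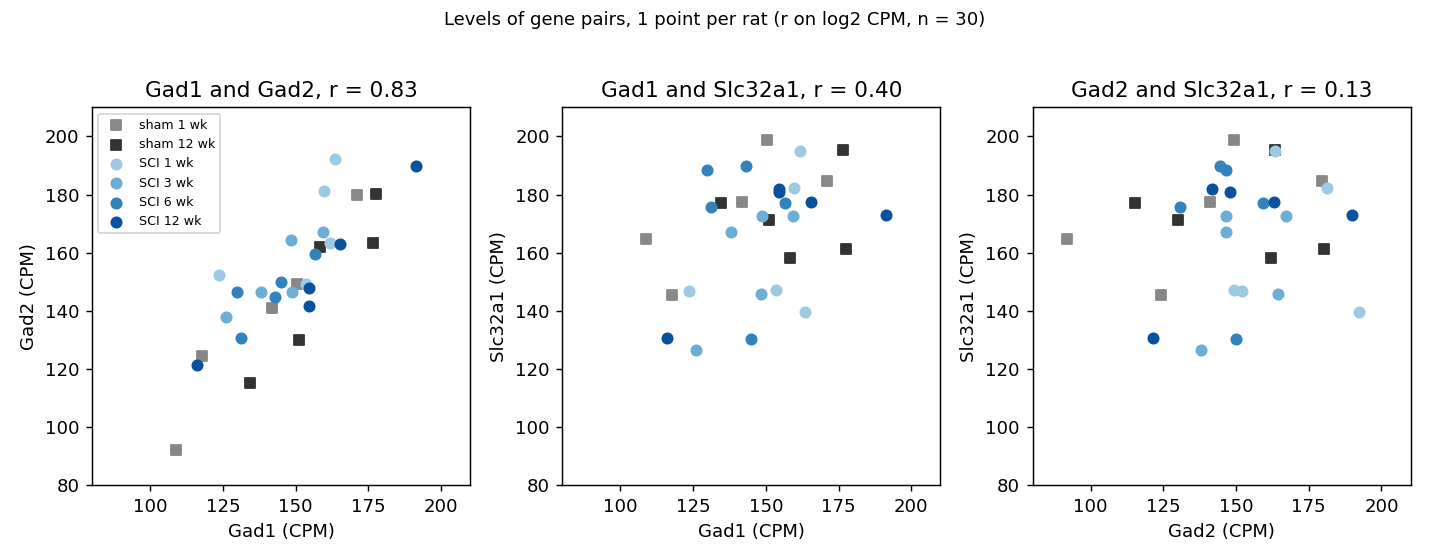
Level in CPM of Gad1 and Gad2, Gad1 and Slc32a1, and Gad2 and Slc32a1 in the 30 rats (1 point per rat, squares sham, circles injured, axes from 80 CPM). Gad1 and Gad2 lie along a line with an r of 0.83, and the points of Gad2 and Slc32a1 are scattered, with an r of 0.13.

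A ratio within a library does not depend on how libraries are scaled. The count of Gad2 over that of Gad1 was 1.02 ± 0.0883 (SD, n = 30) and ranged from 0.846 to 1.23, while Gad2 itself ranged from 92 to 192 CPM. On the log2 scale the difference between both genes had an SD of 0.13 over the rats, against 0.19 for Gad1 and 0.23 for Gad2. This SD follows from those of both genes and their r, so it restates the r and is no separate check of it. The ratio depends on the lengths of the genes, so only its changes can be read. By group it was 0.936 ± 0.0805 (SD, n = 5) in sham 12 weeks, 0.988 ± 0.0848 in sham 1 week, and after injury 1.1 ± 0.11 at 1 week, 1.06 ± 0.0475 at 3 weeks, 1.04 ± 0.052 at 6 weeks and 0.98 ± 0.0478 at 12 weeks. The ranges of SCI 1 week (0.974 to 1.23) and sham 1 week (0.846 to 1.06) overlapped, and the ratio was not tested between groups.

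Library depth was set beside these values, since totals differed 5.79-fold between libraries. The r of log2 total counts was 0.03 with Gad1, -0.13 with Gad2, 0.11 with Slc32a1 and -0.02 with Pvalb, and the rho was 0.13, 0.0033, -0.11 and 0.05 (permutation p of r from 0.492 to 0.915 and of rho from 0.493 to 0.987 over 4 relations, adjusted p = 0.915 and 0.987 for each). Without the 2 libraries farthest from the median depth the r was 0.23, 0.16, 0.10 and 0.19. After the part that follows depth was removed, the r of Gad1 and Gad2 was 0.84.

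Across all tested genes, correlation with any of these 4 was centred near 0. The median r over the other 14800 genes was 0.0039 for Gad1, -0.0046 for Gad2, 0.0079 for Slc32a1 and 0.0040 for Pvalb, and the percentile 95 of r was 0.38, 0.41, 0.44 and 0.46 in the same order. Gad2 ranked 2 among those genes by its r with Gad1, and Gad1 ranked 4 by its r with Gad2. Slc32a1 ranked 605 and Pvalb 2434 by r with Gad1, and they ranked 4362 and 4545 by r with Gad2. By r with Slc32a1, Gad1 ranked 1040, Pvalb 1070 and Gad2 4718, and by r with Pvalb, Slc32a1 ranked 1221, Gad1 3024 and Gad2 4917. Within groups Gad2 ranked 1 for Gad1 and Gad1 ranked 2 for Gad2. Slc32a1 then ranked 632 for Gad1 and 2374 for Gad2, and Pvalb ranked 3236 and 3000. These ranks describe the 30 libraries, and genes are not independent replicates.

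The genes most like each member were found by r over the 30 rats, with the other members left out, and are given by identifier because the files do not pair identifiers with names. For Gad1 they were ENSRNOG00000037658 (r = 0.84) and ENSRNOG00000003512 (r = 0.79). For Gad2 they were the same ENSRNOG00000037658 (r = 0.85) and ENSRNOG00000014859 (r = 0.84). For Slc32a1 they were ENSRNOG00000018039 (r = 0.82) and ENSRNOG00000049949 (r = 0.81), and for Pvalb ENSRNOG00000060248 (r = 0.76) and ENSRNOG00000019934 (r = 0.75). Of the 14800 other genes, an r above 0.5 was reached by 216 with Gad1 (1.46%), 310 with Gad2 (2.09%), 452 with Slc32a1 (3.05%) and 501 with Pvalb (3.39%). These shares are the base rates for the overlaps that follow. Gad1 and Gad2 shared 123 of these, 56.9% of the genes of Gad1 and 39.7% of those of Gad2. Gad1 and Slc32a1 shared 25 (11.6% and 5.53%), Gad2 and Slc32a1 shared 8 (2.58% and 1.77%), and Slc32a1 and Pvalb shared 15 (3.32% and 2.99%). Gad1 and Pvalb shared 7 (3.24% and 1.4%) and Gad2 and Pvalb shared 3 (0.968% and 0.599%). Genes that correlate with each other share such neighbours by construction, so the overlap of Gad1 and Gad2 adds no separate support to their r.

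**Figure D4:**
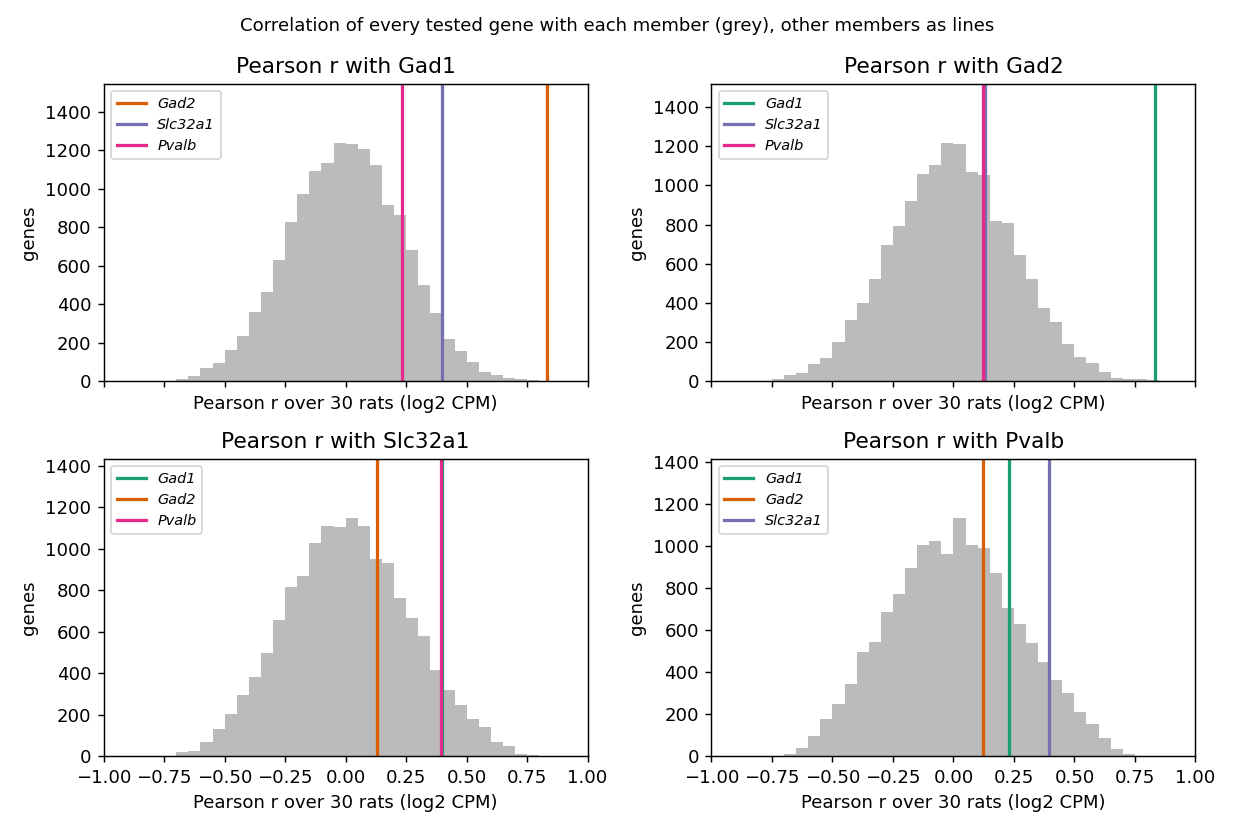
Number of tested genes (y axis) by their Pearson r over 30 rats (x axis) with each of the 4 genes, in grey, with the other 3 genes as lines (Gad1 and Pvalb lie on top of each other for Slc32a1, at 0.40 and 0.39). Gad1 and Gad2 stand in each other's far right tail at 0.83, and Slc32a1 and Pvalb lie at 0.13 and 0.12 in the panel of Gad2.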

How the data were processed

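Each of the 30 libraries, 1 per rat, came from total RNA depleted of ribosomal RNA and made strand-specific, per the labels' protocols. The deposited values are raw counts per Ensembl gene identifier. Tools named in the submitters' processing notes are STAR 2.5.3a, Subread 1.2.6, featureCounts, Trimmomatic and bcl2fastq 2.19.05, and the genome build is Rnor_6.0. Whether counting used strand, which annotation it used and how it treated multimapping reads is not given in the sources used here, so reads of overlapping or antisense genes cannot be told apart.

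Groups and replicate numbers came from the titles. Counts were fitted with edgeR 4.0.16 in R 4.3.3 (TMM, filterByExpr, robust quasi-likelihood, 6 groups, no covariate), with Benjamini-Hochberg adjustment over 14801 genes and a threshold of 0.05. Tests are two-sided. Standard errors and 95% intervals were derived from the F statistic. Correlations used log2 CPM (prior count 2) with Python 3.11.15, numpy 2.4.6 and scipy 1.17.1. Within groups, 60 pairs of libraries gave a chi-square per degree of freedom of 4.82 to 43.2, so none agreed within sampling noise. Alternatives included DESeq2 1.42.0 and limma-voom (limma 3.58.1).

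The genes named were the 4 members and, for each, the 2 genes most like it by r. The symbols were paired with the 4 identifiers in the choice of the genes, and no table used here could check that pairing. The RefSeq table used here (GRCr8) matched 0 of the 32545 identifiers, so the planned lists of GABA receptor, glycine, interneuron, white matter and cell type marker genes, and the covariate for white matter, were not run. The 4 members had promoter windows by symbol. Members, lists and tests were chosen with earlier results of these data known.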

Additional observations from a re-analysis of the deposited data

Results flagged for a closer look

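For the 4 genes and the ratio of Gad2 to Gad1, the distance of the highest and lowest rat from its neighbour was divided by the whole range of each group of 5, which gives 30 sets with a critical ratio of 0.71. It was passed in 4 sets, where chance at 1 in 20 gives 1.5, and the sets share libraries.

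SCI 1 week replicate 1 had the lowest Gad1 of its group, 124 CPM against 153 to 164 CPM in the other 4 rats, with a gap ratio of 0.747. SCI 6 weeks replicate 1 had the lowest Slc32a1 of its group, 130 CPM against 176 to 190 CPM, with a ratio of 0.763, and at 6.46 M counts it was the shallowest library of all. SCI 12 weeks replicate 2 had the lowest Slc32a1 of its group, 131 CPM against 173 to 182 CPM, with a ratio of 0.826. It had 8.13 M counts and also the lowest Gad1 and Gad2 of its group, at 116 and 121 CPM. The ratio of Gad2 to Gad1 in SCI 6 weeks replicate 2 was the highest of its group, at 1.13. Its gap ratio of 0.711 was barely above the critical 0.71, and the library had 7.04 M counts. The part of depth in these values was not tested.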

How the results depend on the processing

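None of the 32 test results of the 4 genes passed the threshold under any of 1264 alternative values, where the lowest adjusted p was 0.208 (Gad2 at 1 week, limma-voom). Of the 1108 values that have a sign (28 results, without the joint test), 1047 kept it and 61, in 13 results, reversed. The correlation of Gad1 and Gad2 passed under every alternative run. Of the other 5 pairs, Gad1 with Slc32a1 passed without SCI 1 week replicate 3 or SCI 6 weeks replicate 2, and Slc32a1 with Pvalb without SCI 12 weeks replicate 2 or 3 or sham 1 week replicate 2, within leave-one-out ranges of r from 0.315 to 0.458 and from 0.338 to 0.462. The 4 mean levels moved by less than 1 SD when scaled by library totals alone. The cause of these changes was not tested.

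Reversed log2 fold changes at 3 weeks, with sham 1 week alone as reference, were 0.064 for Gad1 and 0.014 for Pvalb, and Pvalb was 0.013 both without the 2 libraries apart on the principal components (SCI 3 weeks replicate 1 and SCI 12 weeks replicate 2) and without the libraries under 9 M counts. The last 2 settings were added with the data known. At 6 weeks the reversed values were 0.036 for Gad1 and 0.047 for Pvalb against sham 1 week alone, -0.037 for Gad2 against sham 12 weeks alone, -0.00696 for Gad2, 0.010 for Slc32a1 and 0.015 for Pvalb with library size as covariate, and 0.059 for Slc32a1 and 0.034 for Pvalb without the libraries under 9 M counts. At 12 weeks Gad1 was 0.0624 and 0.0625 and Slc32a1 0.0453 and 0.0454 without the 2 libraries apart and without those under 9 M counts. Counting sham 1 week replicate 1 as an injured rat gave Pvalb 0.014 for the difference of injury effects.

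With 1 library left out at a time, Pvalb ran from -0.145 to 0.00881 at 1 week, Gad1 from -0.081 to 0.0040 and Pvalb from -0.072 to 0.013 at 3 weeks, and Gad2 from -0.030 to 0.081, Slc32a1 from -0.045 to 0.074 and Pvalb from -0.056 to 0.048 at 6 weeks. At 12 weeks Gad1 ran from -0.106 to 0.064, Gad2 from -0.060 to 0.106 and Slc32a1 from -0.059 to 0.047. Slc32a1 ran from -0.067 to 0.039 between the sham groups, Gad1 from -0.037 to 0.044 for all injured against all sham, and Pvalb from -0.107 to 0.057 for the difference of effects. Signs held but sizes moved for Gad1 at 1 week (0.067 to 0.233), Gad2 at 1 week (0.172 to 0.406), Gad2 at 3 weeks (0.029 to 0.143), Gad2 between the sham groups (0.016 to 0.251) and Gad2 for all injured (0.050 to 0.164), each lowest without sham 1 week replicate 3 and highest without sham 1 week replicate 4.

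Counts over all genes moved more. The 53 genes called at 1 week were 219 with DESeq2, 160 with limma-voom, 0 with the conflicting library as injured, 2 with library size as covariate, 157 without the 2 libraries apart, 176 without those under 9 M counts, and 0 (without SCI 1 week replicate 3) to 128 (without SCI 3 weeks replicate 1) with 1 library left out. Without sham 1 week replicate 1, the library with conflicting labels, it was 1. The counts of 0 were 1 at 3 weeks, 1 at 6 weeks, 2 between the sham groups, 16 for all injured and 18 for the difference of effects with DESeq2, and 2 for that difference with limma-voom, without the 2 libraries apart or without those under 9 M counts. With 1 library left out they ran from 0 to 1 at 6 weeks, at 12 weeks and for all injured, and from 0 to 2 between the sham groups and for the difference of effects. The joint test called 4 genes over all tested genes, with none of the GABA neuron genes among them. That count was 7 without a filter, 141 with DESeq2, 19 with limma-voom and 2 with the conflicting library as injured. It was 1 with library size as covariate, 8 without the 2 libraries apart and 0 to 15 with 1 library left out.

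With the replicate block, Gad2 at 1 week was 0.30 (edgeR, adjusted p = 0.374), and 54 genes were called at 1 week, 7 in the joint test and 1 between the sham groups. It changed no call of the 4 genes. Libraries with the same number were on average no more alike than others. Over 75 pairs with the same number the correlation of deviations from group means ran from -0.153 to 0.146, with 8 above 0.1. Its mean was -0.0014, against 0.0003 for pairs with different numbers. Weak links between rats of the same number could go unseen here.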
